A study of Mus musculus with 12 samples.

Results

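The genes described here are 38 components of the autophagy machinery, measured by bulk RNA sequencing in hematopoietic stem cells from mouse bone marrow. They were chosen by gene symbol from a list that covers initiation, conjugation, cargo recognition and lysosomal control, and all 38 were found among the 20457 genes of the expression table. The mice were C57BL/6, and each library came from 50 cells sorted by flow cytometry. The 12 libraries form 4 groups of 3: IL27RA- and IL27RA+ cells of young mice (2 months), and IL27RA- and IL27RA+ cells of old mice (28 months). IL27RA is the surface receptor for the cytokine interleukin-27, and no genetic change or treatment is named for any group. The sources used here do not give the gates for stem cells, or whether both fractions of an age shared animals. No label states separate animals within a group either, so each p-value reflects the spread between these samples alone, which may be technical. For old IL27RA- replicate 1, 1 label reads young but the title and the age of 28 months read old. It was kept as old.

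Autophagy encloses cytoplasm in a double membrane and delivers it to the lysosome for breakdown. The ULK1 kinase complex starts the process, a lipid kinase complex built on Beclin 1 and VPS34 marks the membrane, ATG2, ATG9 and WIPI proteins extend it, and 2 ubiquitin-like conjugation systems attach LC3 and GABARAP proteins (the ATG8 family) to it. Cargo receptors bind both the cargo and the ATG8 proteins, and the transcription factor TFEB drives genes of the lysosome and of autophagy. In blood stem cells autophagy is known for clearing mitochondria and for keeping cells in a quiescent, low-metabolism state.

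Reads assigned to genes ranged from 11.7 M to 24.2 M per library, and were most numerous in young IL27RA- (21.7 M ± 2.54, SD, n = 3) against 13.9 M to 15.6 M on average in the other groups. Libraries of 1 group correlated at 0.784 to 0.868 and libraries of different groups at 0.75 to 0.861 (Pearson's r across genes, which are not independent). Stem cell markers summed to between 87506 and 123250 normalized counts in every library, and all 19 of them passed the filter on low values. Macrophage markers summed to 3660 to 6799 in young IL27RA+ against 619 to 805 in young IL27RA-, and to 1442 to 6521 in old IL27RA+ against 519 to 1282 in old IL27RA-. Old IL27RA- replicate 1 stood apart with 378400 normalized counts in B and plasma cell markers, against at most 14601 in any other library.

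Transcripts of the autophagy genes were read in every library. All 38 members had 10 or more normalized counts in all 12 libraries, and none had a library at 0 reads. Here a normalized count is a read count scaled by the authors for library size. Levels of different genes are ranked after division by exon length, the union of all annotated exons. This union can be longer than the transcripts present, so the order of genes depends on it. On that scale, normalized counts per kilobase (kb) of exon, the members spanned 28.3 for Tfeb to 2374 for Lamp1, with a median of 198. Lamp1 was followed by 2 cargo receptors, Sqstm1 at 2282 and Bnip3l at 1945, and by the ATG8 genes Gabarapl2 (1541), Gabarapl1 (1502) and Map1lc3b (981). The replicates were also closer to each other than for most genes: the median SD within groups was 0.48 on the log2 scale for members against 0.71 for all genes tested. It was under 0.5 for 23 members and over 1 for Atg4c, Tfeb and Atg16l2. As plain counts, without division by length, the median was 1062 for members and 403 for all genes tested. The spread was not compared at matched counts.

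**Figure D1:**
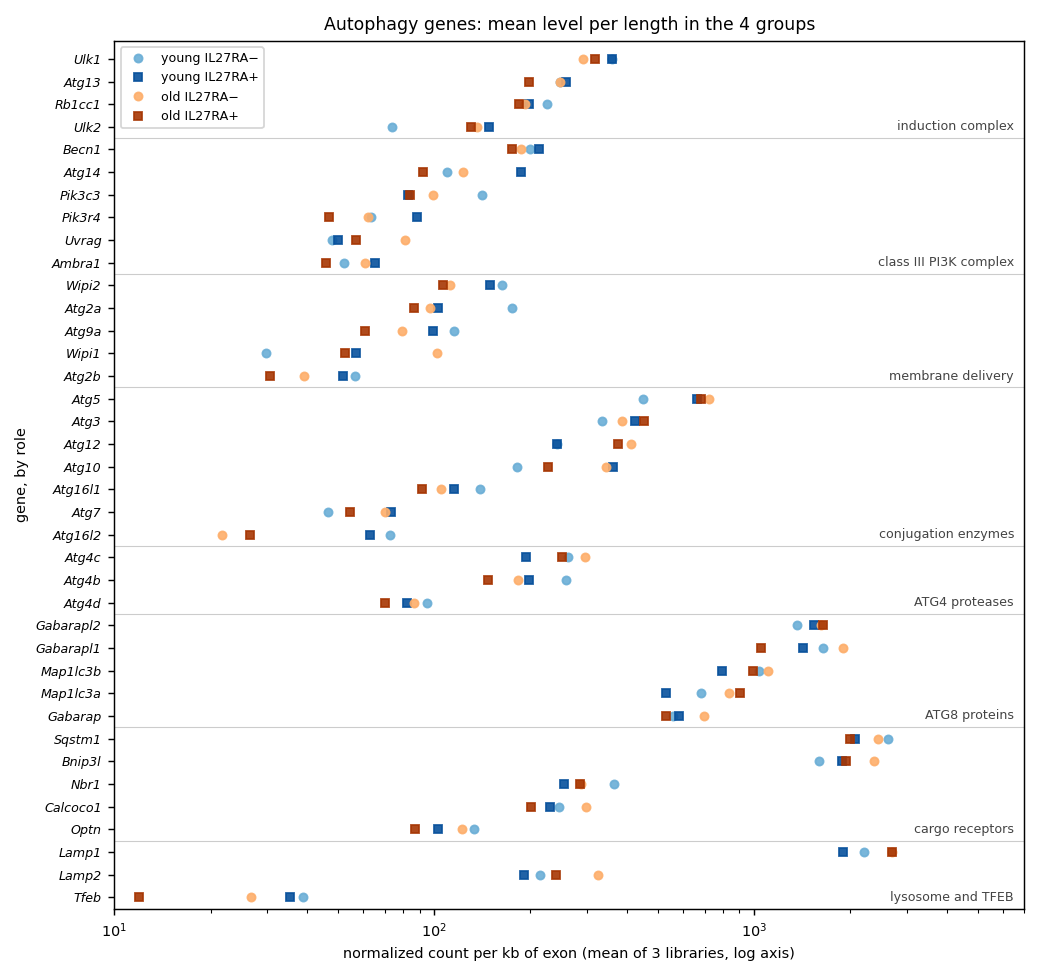
Mean level of each gene in the 4 groups, as normalized counts per kb of exon on a log axis; each point is the mean of 3 libraries and genes are ordered by role. Lamp1, Sqstm1, Bnip3l and the ATG8 genes sat at the high end in every group and Tfeb at the low end.

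The design gives 7 comparisons: IL27RA+ against IL27RA- in young and in old mice, old against young in each fraction, both of these contrasts averaged, and the interaction, which is the age difference in IL27RA+ minus that in IL27RA-. Each gene was tested with limma on the deposited log2 values, log2(normalized count + 1), and differences below are on that scale. No member passed an adjusted p of 0.05 (limma, Benjamini-Hochberg over 14723 genes) in any of the 7. Over all genes, that rule called 0.0204% in young IL27RA+ against IL27RA-, 0.0272% in the same comparison in old mice, 0.672% with age in IL27RA-, 0.421% with age in IL27RA+, 0.19% for the averaged fraction difference, 1.88% for the averaged age difference and 0% for the interaction. With so few calls in the whole table, 0 of 38 members lies near the background share in each comparison. A second method, limma voom on the recovered reads, also called 0 members in all 7. For the fractions at each age it called 0 genes of the whole table, so its 0 members there are no separate result. It called 6 genes of the whole table for the averaged fraction difference and 13 for age in IL27RA+. In bulk samples, fewer cells of a type and less RNA per cell cannot be told apart.

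At an unadjusted p under 0.05, limma marked 7 of 38 members (18.4%) for age in IL27RA-, against 12.5% of all genes, and 7 members for the averaged age difference, against 15.1% of all genes. The other counts were 3 members for the fractions in young mice (8.21% of all genes), 1 for the fractions in old mice (5.38%), 1 for age in IL27RA+ (8.89%), 0 for the averaged fractions (7.97%) and 2 for the interaction (5.18%). Complete separation of the 3 against 3 libraries was seen in 10 members for age in IL27RA- (26.3%, against 14.5% of all genes) and in 7 for age in IL27RA+ (18.4%, against 16.9%). It was seen in 3 members for the fractions in young mice (7.89%, against 9.79%) and in 4 in old mice (10.5%, against 12.6%). Age in IL27RA- was thus the comparison in which members exceeded the background most, with 7 of the 10 higher in old (7.8% of all genes were) and 3 lower (6.74% of all genes). The background was all genes tested, not genes matched to the members for count or spread.

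The precision of these tests bounds what could be seen. A member's standard error had a median of 0.39 in a comparison of 2 groups, ranging from 0.21 for Bnip3l to 0.95 for Tfeb. The 95% interval lay inside a 2-fold change in either direction for 16 members in the fraction comparison at each age, for 13 in the age comparison of each fraction, for 26 in the averaged fraction difference, for 23 in the averaged age difference and for 8 in the interaction. For the remaining members the interval reached past a 2-fold change in at least 1 direction.

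**Figure D2:**
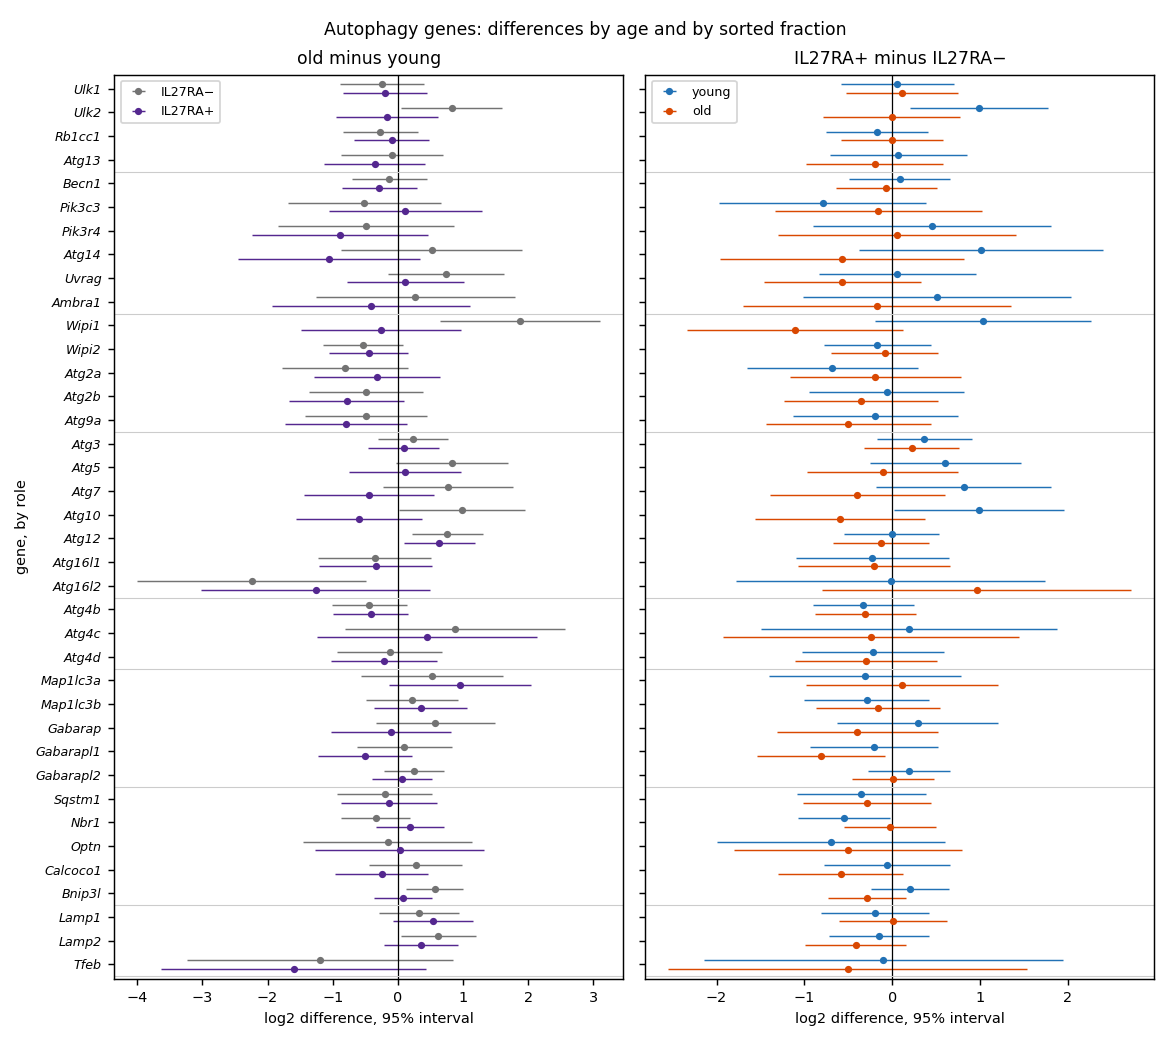
Log2 difference of each gene with its 95% interval, old minus young on the left (grey IL27RA-, purple IL27RA+) and IL27RA+ minus IL27RA- on the right (blue young, orange old); n = 3 libraries per group. Most intervals crossed 0; the widest belong to Tfeb and Atg16l2.

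The induction complex was represented by the kinases Ulk1 and Ulk2, the scaffold Rb1cc1 (FIP200) and the adaptor Atg13. None of the 4 passed the test in any comparison. Rb1cc1 held one of the steadier levels, with group means of 3318, 2917, 2830 and 2708 normalized counts in young IL27RA-, young IL27RA+, old IL27RA- and old IL27RA+ and 95% intervals within a 2-fold change in the 4 comparisons of 2 groups. Ulk2 had 459, 499 and 364 normalized counts in young IL27RA-, 1183, 761 and 721 in young IL27RA+, 1212, 624 and 612 in old IL27RA-, and 978, 686 and 681 in old IL27RA+. Young IL27RA- was the low group, with all 3 libraries below the other 9. The difference between the young fractions was 0.99 ± 0.37 (SE; limma adjusted p = 0.488), and that with age in IL27RA- was 0.82 ± 0.37 (adjusted p = 0.374; 0.50 without old IL27RA- replicate 1). As a share of ULK1 and ULK2 transcripts per kb, Ulk2 made up 17.9% ± 3.94 (SD, n = 3) in young IL27RA- and 29.4%, 31.1% and 29.8% on average in the other groups.

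The class III phosphatidylinositol 3-kinase complex comprised its scaffold Becn1, the lipid kinase Pik3c3 (VPS34), the regulatory subunit Pik3r4 (VPS15), the subunits Atg14 and Uvrag that set its site of action, and the regulator Ambra1. None of these 6 passed the test in any comparison. Becn1 was even, from 977 to 1760 normalized counts over the 12 libraries and with intervals inside a 2-fold change in the 4 comparisons of 2 groups. In the GENCODE annotation 43.9% of Becn1 exon bases overlap Cntd1 on the other strand, and the sources used here do not say whether counting used strand, so reads of the pair cannot be told apart. The same limit holds for smaller overlaps on the other strand, among them Atg4d with Kri1 (19.3%), Uvrag with Gm45187 (17.6%) and Sqstm1 with Mrnip (17.3%). The remaining subunits had a wider scatter inside groups. Pik3r4 in old IL27RA- was 110 normalized counts in replicate 1 and 806 and 888 in the others. Uvrag read 332, 477 and 494 in young IL27RA- against 976, 565 and 662 in old IL27RA-. These groups did not overlap, and the difference was 0.74 ± 0.42 (limma adjusted p = 0.492).

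Membrane delivery was represented by the phosphoinositide-binding proteins Wipi1 and Wipi2, the lipid transfer proteins Atg2a and Atg2b and the scramblase Atg9a. None of the 5 passed the test. Wipi1 (ENSMUSG00000041895), at chr11:109573331-109611967 on the minus strand of GRCm38, had the widest range of group means in this set. Young IL27RA- libraries had 208, 99.5 and 86.9 normalized counts, young IL27RA+ 250, 298 and 208, old IL27RA- 398, 495 and 462, and old IL27RA+ 144, 391 and 161. In young mice the IL27RA+ libraries lay above the IL27RA- libraries, by a margin of under 1 count at the closest pair, and in old mice they lay below them. The age difference in IL27RA- was 1.88 ± 0.57 (95% interval 0.65 to 3.11, limma adjusted p = 0.175), with all 3 old libraries above all 3 young ones. In IL27RA+ it was -0.26 ± 0.57 (adjusted p = 0.952). The interaction was -2.14 ± 0.81 (unadjusted p = 0.0193, limma adjusted p = 0.92). Relative to Wipi2, Wipi1 supplied 15.3% ± 6.93 of the pair's transcripts per kb in young IL27RA-, 29.0% ± 11 in young IL27RA+, 47.7% ± 3.15 in old IL27RA- and 31.6% ± 11.3 in old IL27RA+ (SD, n = 3).

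Wipi2, which recruits ATG16L1 to the membrane, had means of 1714 ± 211 normalized counts in young IL27RA- and 1182 ± 117 in old IL27RA- (SD, n = 3), which did not overlap (-0.53 ± 0.29, limma adjusted p = 0.468). Its averaged age difference was -0.49 ± 0.20 (adjusted p = 0.266). Atg2b, at 44.6 normalized counts per kb one of the lowest members, had 649, 874 and 573 normalized counts in young IL27RA+ and 290, 543 and 402 in old IL27RA+. The old libraries were all lower, by -0.78 ± 0.41 (adjusted p = 0.628). Atg2a and Atg9a gave averaged age differences of -0.56 ± 0.32 and -0.64 ± 0.31 (adjusted p = 0.437 and 0.349), with overlapping groups in each fraction. In the annotation 31.8% of Atg9a exon bases overlap the transcript Gm29253 on the same strand, where reads cannot be told apart by strand.

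The conjugation enzymes were Atg7 (the E1-like activating enzyme), Atg3 and Atg10 (E2-like enzymes), and the ubiquitin-like Atg12 and its partner Atg5. With them were grouped Atg16l1, which places the ATG12-ATG5 conjugate on membranes, and its paralog Atg16l2. Of these 7, none passed the test, and Atg12 (ENSMUSG00000032905) had the smallest adjusted p of all 38 members. Its levels were 2118, 1914 and 1564 normalized counts in young IL27RA-, 2037, 2092 and 1464 in young IL27RA+, 2615, 3995 and 2940 in old IL27RA-, and 2454, 2582 and 3680 in old IL27RA+. All 6 old libraries lay above all 6 young ones. Neutrophil and T and NK cell marker sums, given with the other markers, separated the ages in the same way, and their part here was not tested. By gene, 4 of the 6 neutrophil markers tested had a negative averaged age difference. The age difference of Atg12 was 0.76 ± 0.25 in IL27RA- (limma adjusted p = 0.225) and 0.63 ± 0.25 in IL27RA+ (adjusted p = 0.474). Averaged over the fractions it was 0.70 ± 0.18 (95% interval 0.31 to 1.08, adjusted p = 0.0664). With library weights it was 0.74 with an adjusted p of 0.0453, and over all alternatives its adjusted p ranged from 0.0453 to 0.192.

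Atg16l2 (ENSMUSG00000047767), at chr7:101263034-101302251 on the minus strand of GRCm38, was the member with the largest averaged age difference in the other direction. It had 247, 756 and 848 normalized counts in young IL27RA-, 490, 539 and 577 in young IL27RA+, 20.2, 281 and 251 in old IL27RA-, and 214, 194 and 264 in old IL27RA+. In IL27RA+ the old libraries all lay below the young ones, while in IL27RA- the ranges overlapped through young replicate 1. The averaged difference was -1.75 ± 0.58 (limma adjusted p = 0.16), and that in IL27RA- was -2.24 ± 0.82 (adjusted p = 0.277). Old IL27RA- replicate 1 set much of the size: without it these values were -1.14 and -1.02. Atg16l1, the paralog known for canonical autophagy, gave -0.35 ± 0.29 for the averaged difference (adjusted p = 0.633).

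Atg10 had 308, 184 and 444 normalized counts in young IL27RA- and 562, 910 and 389 in young IL27RA+, and then 459, 683 and 628 in old IL27RA- and 437, 429 and 302 in old IL27RA+. In old mice the 3 IL27RA+ libraries were all lower than the 3 IL27RA- libraries, and in young mice the fractions overlapped. The difference between fractions was 0.99 ± 0.45 in young mice (limma adjusted p = 0.602; 0.66 without young IL27RA- replicate 2) and -0.60 ± 0.45 in old mice (adjusted p = 1), and the interaction was -1.59 ± 0.64 (adjusted p = 0.922). Atg3 was among the steadiest members, with an SD within groups of 0.20 on the log2 scale and 802 to 1595 normalized counts over the 12 libraries. Atg5 had 1435, 487 and 1245 normalized counts in young IL27RA- against 1571, 1639 and 1894 in old IL27RA-, which did not overlap (0.83 ± 0.40, adjusted p = 0.415). Without young IL27RA- replicate 2 this difference was 0.34.

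The ATG4 proteases Atg4b, Atg4c and Atg4d prime ATG8 proteins for conjugation and later release them. None of the 3 passed the test. Atg4b, the main mammalian form, had 1643, 1727 and 3022 normalized counts in young IL27RA-, 1329, 1866 and 1734 in young IL27RA+, 1365, 1595 and 1577 in old IL27RA-, and 1248, 1264 and 1152 in old IL27RA+. Its old libraries lay below the young ones in both fractions, by -0.44 ± 0.27 in IL27RA- and -0.41 ± 0.27 in IL27RA+ (limma adjusted p = 0.526 and 0.725), and old IL27RA+ lay below old IL27RA-. Without young IL27RA- replicate 3 the difference in IL27RA- was -0.16. Atg4c varied most of all members inside groups, with 1380, 1171 and 86.9 normalized counts in young IL27RA-.

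**Figure D3:**
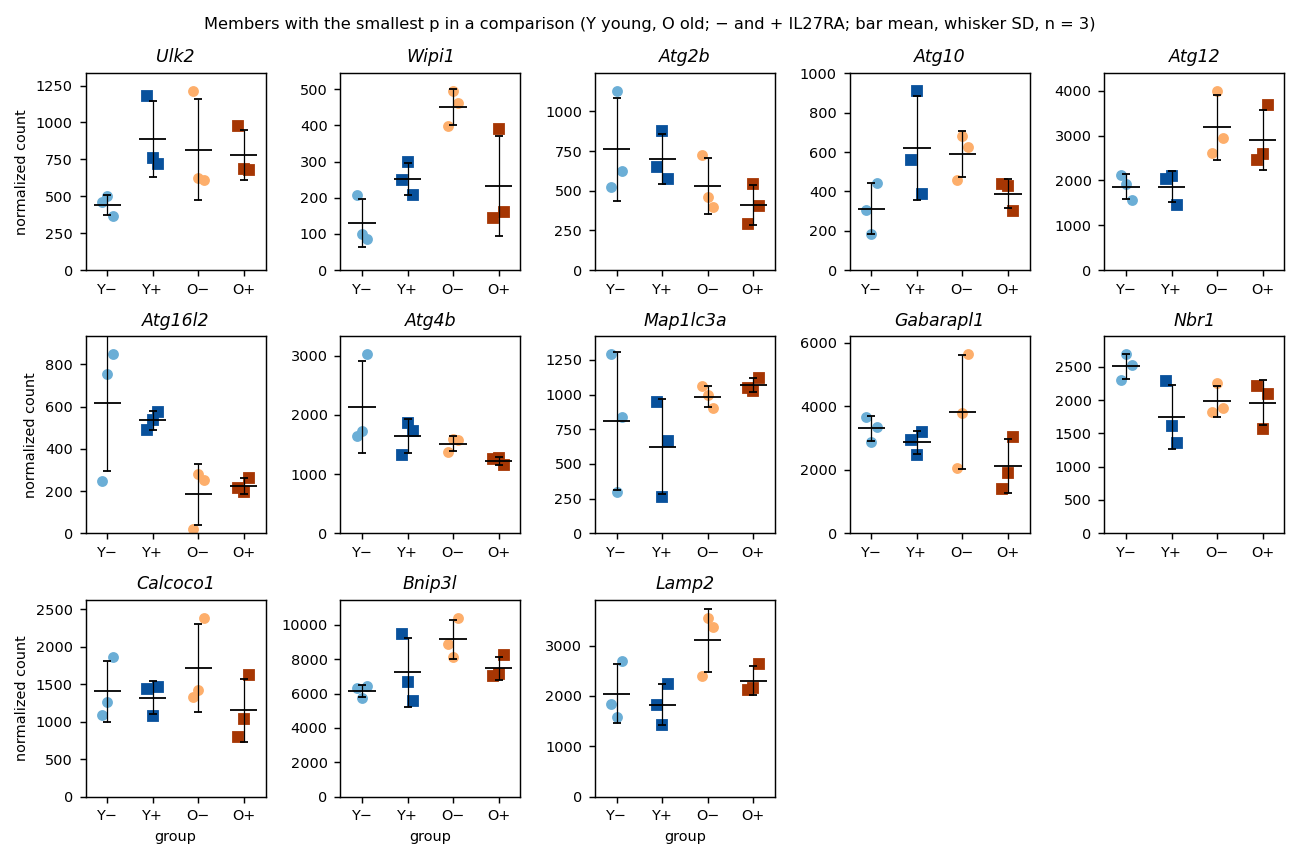
Normalized counts of the 13 members with the smallest p-values in at least 1 comparison, 1 point per library; bars are means and whiskers SDs of n = 3 (Y young, O old, - and + for IL27RA). All 6 old libraries lay above all 6 young ones for Atg12, and the order of the fractions for Wipi1 differed between the ages.

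The ATG8 proteins were Map1lc3a and Map1lc3b (LC3) and Gabarap, Gabarapl1 and Gabarapl2. None of these 5 passed the test in any comparison. Gabarapl1 and Gabarapl2 took the largest shares of the family's transcripts per kb, 20.0% to 32.2% and 26.5% to 32.3% as group means, followed by Map1lc3b at 16.1% to 19.4%. This order depends on the length used, the union of all annotated exons: 7.52 kb for Map1lc3b, 2.33 for Gabarapl2 and 2.01 for Gabarapl1. As plain counts Map1lc3b had the highest mean of the family, 7377 against 3583 for Gabarapl2 and 3024 for Gabarapl1. Gabarapl1 was 3671, 2880 and 3359 normalized counts in young IL27RA-, 2929, 2468 and 3185 in young IL27RA+, 2051, 3777 and 5630 in old IL27RA-, and 1402, 1890 and 3042 in old IL27RA+. The old fractions overlapped through old IL27RA- replicate 1 and old IL27RA+ replicate 3. The difference between them was -0.81 ± 0.34 (limma adjusted p = 0.862), and without old IL27RA- replicate 3 it was -0.47. Its share of the family was 20.0% ± 5.0 in old IL27RA+ and 29.9% ± 9.95 in old IL27RA- (SD, n = 3). In the annotation 28.3% of Gabarapl1 exon bases overlap the noncoding gene 1700101I11Rik on the other strand.

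Map1lc3a, the LC3 form of many differentiated tissues, had 947, 264 and 666 normalized counts in young IL27RA+ and 1049, 1027 and 1123 in old IL27RA+. All old libraries were above the young ones, by 0.95 ± 0.51 (limma adjusted p = 0.644), and without young IL27RA+ replicate 2 the difference was 0.42. Map1lc3b, the form used to count autophagosomes, ranged from 3744 to 10072 normalized counts over the libraries, both within young IL27RA-. Gabarapl2 was the steadiest of the family, with an SD within groups of 0.22 on the log2 scale, and its intervals lay inside a 2-fold change in all comparisons.

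**Figure D4:**
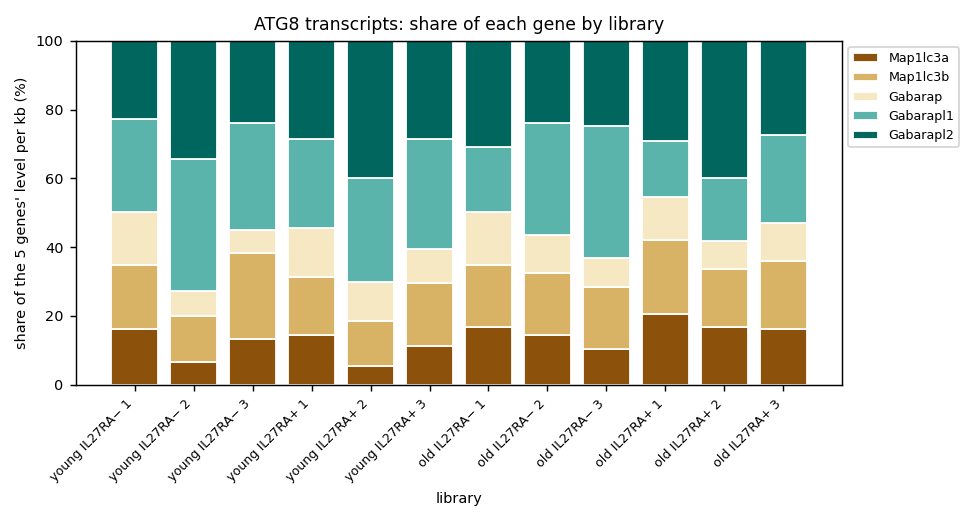
Share of each ATG8 gene in the family's summed level per kb of exon, in percent, for each of the 12 libraries. The shares depend on the length used, the union of all annotated exons. Gabarapl1 and Gabarapl2 held the largest shares in most libraries, and Gabarapl1 was lowest on average in old IL27RA+ (20.0%).

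Among the cargo receptors, Sqstm1 (p62), Nbr1 and Optn bind ubiquitinated cargo, Calcoco1 acts in turnover of the endoplasmic reticulum, and Bnip3l (NIX) marks mitochondria for removal. None of the 5 passed the test. Sqstm1 was the member with the highest mean count, 7657, and its libraries ranged from 4486 to 11456, both in old IL27RA-. Its averaged age difference was -0.17 ± 0.24 (limma adjusted p = 0.806). Bnip3l had 6304, 5749 and 6435 normalized counts in young IL27RA-, 9460, 6703 and 5564 in young IL27RA+, 8882, 8152 and 10431 in old IL27RA-, and 7050, 7131 and 8222 in old IL27RA+. Old IL27RA- libraries lay above all young IL27RA- libraries, by 0.57 ± 0.21 (adjusted p = 0.274), while in IL27RA+ the ages overlapped (0.08 ± 0.21, adjusted p = 0.96). Erythroid markers, given because Bnip3l is known from red cell maturation, summed to 445 to 1186 normalized counts in young IL27RA-, 821 to 8598 in young IL27RA+, 621 to 902 in old IL27RA- and 831 to 1797 in old IL27RA+, and their part in the Bnip3l values was not tested.

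Nbr1 was 2305, 2686 and 2524 normalized counts in young IL27RA- and 2279, 1608 and 1356 in young IL27RA+. These did not overlap, with a difference of -0.55 ± 0.25 (limma adjusted p = 0.593), and in old mice the difference was -0.03 ± 0.25 (adjusted p = 1). Calcoco1 had 1332, 1425 and 2390 normalized counts in old IL27RA- and 799, 1032 and 1621 in old IL27RA+, which overlapped (-0.59 ± 0.33, adjusted p = 1). The difference was -0.32 without old IL27RA- replicate 3 and -0.36 without old IL27RA+ replicate 1. Optn had its lowest value, 104 normalized counts, in young IL27RA+ replicate 1, against 632 and 420 in the other libraries of that group.

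Lamp1 and Lamp2 encode the main glycoproteins of the lysosomal membrane, and Tfeb the transcription factor for lysosomal genes. None of the 3 passed the test. Lamp2 was 1848, 1581 and 2697 normalized counts in young IL27RA-, 1819, 1415 and 2239 in young IL27RA+, 2393, 3555 and 3377 in old IL27RA-, and 2121, 2153 and 2638 in old IL27RA+. The ages overlapped in both fractions through the third young replicate. The averaged age difference was 0.49 ± 0.19 (limma adjusted p = 0.232), and for Lamp1 it was 0.43 ± 0.20 (adjusted p = 0.34). Tfeb, the lowest member, had 205, 125 and 331 normalized counts in young IL27RA-, 143, 161 and 300 in young IL27RA+, 324, 112 and 18.8 in old IL27RA-, and 37.0, 104 and 62.1 in old IL27RA+. Its old IL27RA+ libraries lay below all young IL27RA+ libraries, while old IL27RA- spanned from 18.8 to 324. The averaged age difference was -1.40 ± 0.67 (adjusted p = 0.349), and without old IL27RA- replicate 3 it was -0.85.

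TFEB and its relatives bind E-box sequences with the core CACGTG, and the letters GTCACGTG and TCACGTGA extend that core as in the element known from lysosomal genes. RefSeq promoters (GRCm38.p6, 250 bases before to 50 after a gene's start) were found for 31 of the 38 members and searched on both strands, with shares counted over genes. GTCACGTG was present in 4 of the 31 (12.9%), against 2.55% of the 27025 genes with a promoter in the table. TCACGTGA, which overlaps it by 7 letters, was in 1 of the 31, against 1.12% of all these genes. CACGTG, which both of them contain, was in 5 of the 31 (16.1%), against 8.09%. The stretches around the matches in the 4 promoters with an extended core are printed 5′ to 3′ on the gene's strand, with every core or extended core in capitals, to show how they differ in number and spacing.
Atg3: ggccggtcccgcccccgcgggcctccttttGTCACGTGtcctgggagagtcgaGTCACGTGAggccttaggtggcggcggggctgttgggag
Atg7: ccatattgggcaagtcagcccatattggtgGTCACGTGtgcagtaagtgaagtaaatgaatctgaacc
Atg14: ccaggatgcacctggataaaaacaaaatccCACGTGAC
Lamp1: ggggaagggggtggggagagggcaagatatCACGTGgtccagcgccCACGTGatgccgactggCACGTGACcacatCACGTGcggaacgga
These lie at chr16:45158703-45158794 (plus strand), chr6:114670932-114670999 (plus), chr14:47568428-47568465 (minus) and chr8:13159070-13159160 (plus). Lamp1 held 4 cores, the first 61 and the last 15 bases before its start, Atg3 held 2, at 94 and 71 bases, and Atg7 and Atg14 held 1 each. The RefSeq starts of Atg7 and Atg14 lie inside the gene spans of GENCODE (chr6:114643097-114860614 and chr14:47540893-47570649), downstream of the first start annotated there. These matches describe letters only, and binding was not measured. In the expression data these 4 genes differed widely in level, with 2374 normalized counts per kb for Lamp1, 399 for Atg3, 128 for Atg14 and 61.0 for Atg7.

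Across the list, most members had the same sign in the comparison of the fractions in old mice. There 31 of 38 members had a negative difference between IL27RA+ and IL27RA- (7061 of all 14723 genes tested), with a median of -0.20 against 0.02 over all genes tested. Of 108 other genes of autophagy and the lysosome, described below, 56 were negative and 52 positive there, with a median of -0.02. In young mice the count of negative members was 21 of 38 (6970 of all genes), with a median of -0.04 (0.006 with upper quartile scaling) against 0.04 over all genes. With age, 20 of 38 members were positive in IL27RA- (7672 of all genes, member median 0.16, all genes 0.04). In IL27RA+ 24 of 38 were negative (6909 of all genes, member median -0.20, all genes 0.05). The comparisons share libraries, so these counts are not separate observations. No test was made of a count over the list.

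The count in old mice followed the libraries unevenly. Against each gene's mean over the 12 libraries, 9 and 8 of the 38 members were above it in old IL27RA+ replicates 1 and 2, while 23 were above it in replicate 3. In old IL27RA- the counts were 22, 23 and 26, and in the 6 young libraries 19 to 24. Among all genes tested, 56.6%, 56.7% and 55.6% were above their own mean in the 3 old IL27RA+ libraries. Without old IL27RA+ replicate 1 or 2 the median difference was -0.13 in each case with 27 and 26 negative members, and without replicate 3 it was -0.31 with 32. The age median in IL27RA- was -0.05 both without young IL27RA- replicate 3 and without old IL27RA- replicate 3, and 0.02 without young IL27RA- replicate 2. That in IL27RA+ was -0.10 and -0.11 without old IL27RA+ replicates 1 and 2 and -0.33 without replicate 3.

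Marker sums of other cell types and states also differed between these groups. Cell cycle genes, 24 of 24 tested, summed to 21601 to 30052 normalized counts in old IL27RA+ and 5139 to 8685 in old IL27RA-, with 2 genes at 0 in all old IL27RA- libraries. In young mice they summed to 10514 to 25718 and 13786 to 21466. Of the 15 macrophage genes, 2 were at 0 in all old IL27RA- libraries and none in all old IL27RA+ libraries. By library, old IL27RA+ replicates 1, 2 and 3 had 30052, 21601 and 27038 counts in cell cycle genes and 5251, 1442 and 6521 in macrophage genes. Between the ages, neutrophil markers (10 genes, 6 past the filter) summed to 3647 to 5488 normalized counts in the young libraries and 7796 to 13163 in the old ones, and T and NK cell markers (4 genes) to 68.2 to 537 and 802 to 3043. Both sums separated all young from all old libraries, but single genes did not all follow them. The averaged age difference was positive for 2 and negative for 4 of the 6 neutrophil genes tested (median -0.24). For the 4 T and NK cell genes it was positive for 3 and negative for 1. The part of cycling, or of RNA from any of these cell types, in the values of the autophagy genes was not tested.

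**Figure D5:**
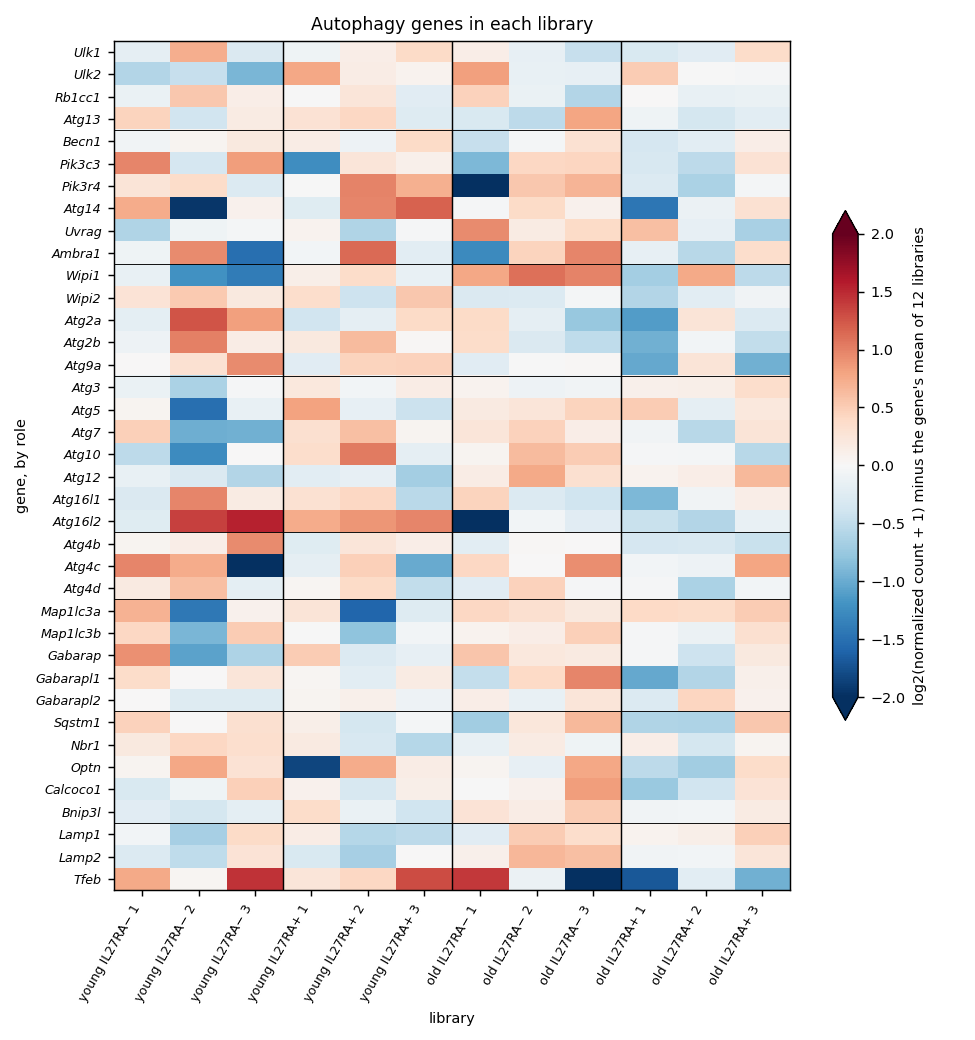
Each gene's log2(normalized count + 1) in each of the 12 libraries minus its mean over them, red above and blue below, with genes ordered by role. Old IL27RA+ replicates 1 and 2 were mostly blue, with 9 and 8 of 38 genes above their own mean, and replicate 3 was not, with 23.

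Beyond the members, 108 further genes of autophagy and the lysosome were in the table and all were tested. They were grouped as 29 inducers and regulators, 20 selective receptors, 17 genes of fusion with the lysosome and 42 lysosomal genes and TFEB targets. With age, 1 passed the test in IL27RA- and 1 in IL27RA+, both higher in old (limma adjusted p under 0.05; 0.516% and 0.346% of all genes were called higher). For the averaged age difference 2 passed, both higher (1.4% of all genes). None passed in the fraction comparisons or the interaction, where the unadjusted p was under 0.05 for 5 of 108 in young mice (8.21% of all genes), 3 in old mice (5.38%), 4 for the average (7.97%) and 4 for the interaction (5.18%). With age the same count was 14 of 108 in IL27RA- (12.5% of all genes), 11 in IL27RA+ (8.89%) and 21 on average (15.1%). Limma voom on the recovered reads called 0 genes of the whole table for the fractions at either age.

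Vmp1, a membrane scramblase needed to form the autophagosome, rose with age in both fractions. It had 5905, 7518 and 6132 normalized counts in young IL27RA-, 4936, 6515 and 8366 in young IL27RA+, 17117, 27819 and 15075 in old IL27RA-, and 20253, 26182 and 12724 in old IL27RA+. All 6 old libraries lay above all 6 young ones, as they did for the neutrophil and for the T and NK cell marker sums, whose part here was not tested. Single markers did not all follow these sums. The averaged age difference was positive for 2 and negative for 4 of the 6 neutrophil genes tested. It was positive for 3 and negative for 1 of the 4 T and NK cell genes. The age difference of Vmp1 was 1.57 ± 0.29 in IL27RA- (limma adjusted p = 0.0232), 1.55 ± 0.29 in IL27RA+ (adjusted p = 0.0349) and 1.56 ± 0.21 on average (95% interval 1.12 to 2.00, adjusted p = 0.00083). Between the fractions it was -0.02 ± 0.21 (adjusted p = 0.994). The averaged call held under all alternatives, with adjusted p from 0.000484 to 0.0232. The call in IL27RA- was lost without young IL27RA- replicate 3 (adjusted p = 0.0655), old IL27RA- replicate 1 (0.0583) and old IL27RA- replicate 2 (0.0992). That in IL27RA+ was lost without young IL27RA+ replicates 1 and 2 (0.0962 and 0.117) and without old IL27RA+ replicates 1, 2 and 3 (0.167, 0.198 and 0.063). The microRNA gene Mir21a is known to overlap Vmp1, and reads of the pair cannot be told apart here.

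Cd63, a tetraspanin of late endosomes and lysosomes, rose on average with age. Its values were 11474, 10789 and 10107 normalized counts in young IL27RA-, 10493, 10661 and 8602 in young IL27RA+, 23352, 16695 and 16603 in old IL27RA-, and 12732, 14004 and 12952 in old IL27RA+. In each fraction the old libraries lay above the young ones. The averaged difference was 0.61 ± 0.13 (limma adjusted p = 0.0267), with 0.79 ± 0.18 in IL27RA- (adjusted p = 0.0696) and 0.42 ± 0.18 in IL27RA+ (adjusted p = 0.518). The averaged call was lost without young IL27RA- replicate 3, young IL27RA+ replicate 3, or any 1 of the 3 old IL27RA+ replicates, with adjusted p between 0.0605 and 0.0846.

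Other pathway genes with the smallest p-values in a comparison did not pass. Vps11, a subunit of the complexes that tether vesicles to lysosomes, had 478, 577 and 519 normalized counts in young IL27RA+ and 955, 1204 and 1201 in old IL27RA+. All the old libraries were higher, by 1.09 ± 0.33 (limma adjusted p = 0.269). Between the young fractions the difference for Vps11 was -0.82 ± 0.33 (adjusted p = 0.541), and -0.51 without young IL27RA- replicate 1. Flcn, a regulator of TFEB location, gave 0.65 ± 0.27 there (adjusted p = 0.566), and Tmem55b, which positions lysosomes, gave 0.80 ± 0.27 between the old fractions (adjusted p = 0.601). Gaa, the lysosomal enzyme that degrades glycogen, gave -0.50 ± 0.19 for the averaged fraction difference (adjusted p = 0.47).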

How the data were processed

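RNA from 12 libraries of 50 sorted cells was amplified with Smart-Seq2, a full-length method without molecular identifiers, per the labels' protocols. The authors deposited 1 table of log2 values; in each library these turned out to be log2(normalized count + 1), with counts divided by a size factor, and whole reads were recovered from them (all values within 0.001 of a whole read). DESeq2, HTSeq, TopHat2 2.1.1 and FastQC 0.11.5 are named, without roles, in the submitters' processing notes. The build, the annotation and the strand setting of the counts are parameters not given in the sources used here. Of 20473 lines, 1 damaged line and 15 repeats were left out. Genes with a normalized count of 10 or more in at least 3 libraries were kept (14723 of 20457, 72%). Group means were fitted over all 12 libraries with limma 3.58.1 (R 4.3.3) with a trended variance (8 residual and 6.62 prior degrees of freedom), and p-values were adjusted by Benjamini-Hochberg over all genes kept. The pipeline was tested on simulated data in which the changes were larger than most member differences. That test therefore does not show how well differences of the size seen here could be detected. Levels per kb used the union of exons in GENCODE M21 (GRCm38), and promoters came from RefSeq. Reads were not independent molecules, so depth limits cover counting error only; 3 reads correspond to 1.93 to 3.77 normalized counts.

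The members, gene lists, markers and tests were chosen with earlier results of these data known. By a written rule, members were selected that had the smallest p-values in each comparison or the highest mean in their role. Those with the smallest p-values are given with library values, in all groups or only in those compared. Those selected by mean alone are given as means or ranges. Other members are named after their values were seen, where their libraries did not overlap, varied most or least, or overlapped another gene. Some of these, such as Tfeb, also have library values. Alternatives were other filters, a pseudocount of 10, upper quartile and quantile scaling, limma voom on recovered reads, no variance trend, library weights, only the groups compared, a replicate block and each library left out.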

Additional observations from a re-analysis of the deposited data

Results flagged for a closer look

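Wipi1 differed in opposite directions between the fractions at the 2 ages, though neither difference passed the test: IL27RA+ minus IL27RA- was 1.03 ± 0.57 in young mice and -1.11 ± 0.57 in old mice, with no overlap of libraries at either age. The test of the difference itself, the interaction of -2.14 ± 0.81 on the log2 scale, had an unadjusted p of 0.0193 and a limma adjusted p of 0.92, and its adjusted p ranged from 0.4 to 0.997 over the alternatives. In young mice the closest libraries were young IL27RA- replicate 1 (208 normalized counts) and young IL27RA+ replicate 3 (208).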

How the results depend on the processing

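Of the counts of members called, 1 changed: with library weights 1 member, Atg12, was called for the averaged age difference. Over the fits that left out 1 library, 0 members were called in all 7 comparisons. In those fits the median difference of the members ranged from -0.09 to 0.057 for the fractions in young mice, -0.31 to -0.126 for the fractions in old mice, -0.051 to 0.259 for age in IL27RA- (-0.051 without young IL27RA- replicate 3 and -0.048 without old IL27RA- replicate 3), -0.333 to -0.103 for age in IL27RA+, -0.175 to -0.046 for the averaged fractions, -0.181 to 0.021 for the averaged age difference and -0.294 to -0.073 for the interaction. No result changed sign while called.

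The count of all genes called moved more, so the background shares hold for the fit described: leaving out 1 library gave 0 to 50 genes for the fractions in young mice, 1 to 25 in old mice, 32 to 281 for age in IL27RA-, 4 to 97 for age in IL27RA+, 6 to 96 and 140 to 434 for the averages and 0 to 5 for the interaction, and the other alternatives gave 0 to 27, 0 to 86, 0 to 109, 13 to 137, 6 to 48, 191 to 348 and 0 to 17. Vmp1 lost its call in each fraction under quantile normalization, without the variance trend and with only the groups compared, and in IL27RA+ with limma voom, with adjusted p up to 0.191. Cd63 lost its averaged call under quantile normalization (adjusted p = 0.0689) and without the variance trend (0.164). Leaving out old IL27RA- replicate 1 and young IL27RA- replicate 2 together, the libraries with the lowest weights, ended the calls of Vmp1 in IL27RA- (0.0818) and of Cd63 (0.0692). The cause was not tested.

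With the replicate number as a block, 0 members were called. Every group holds the same set of replicate numbers, so this block cannot change a difference between groups, only its standard error. The medians were therefore those of the fit without the block (-0.204 for the fractions in old mice), which is no check on them. The block also joined same-numbered libraries of both ages, so it did not model pairs of fractions within an age alone. The correlation of deviations was -0.0539 to 0.1071 over 18 same-numbered pairs, above 0.1 in 1, and -0.0676 to 0.0712 over pairs with other numbers. Of the 12 libraries, 7 correlated best with one of their own number. Between the fractions of an age, same-numbered pairs gave 0.1071, 0.027 and 0.0155 in young mice and 0.0314, 0.0038 and 0.0953 in old mice. No label states pairs, and the main fit took none. Whether same-numbered fractions of an age shared animals was not tested. With the block 0 and 2 genes of the whole table were called for the fractions in young and old mice.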
